A study of Mus musculus with 6 samples.

Results

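Mitochondrial ribosomal protein genes were examined in mouse T cells after stimulation of the T cell receptor (TCR), with or without DMGV. The members were the protein-coding genes whose mouse symbol begins with Mrpl or Mrps followed by a digit, 78 of the 52550 genes in the count table. Of these, 49 were Mrpl genes, named for the large subunit, and 29 were Mrps genes, named for the small subunit. The 78 genes lay on 17 chromosomes, with 11 on chromosome 11, and all 78 were among the 14786 genes that passed the filter on low counts.

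The mitochondrial ribosome (mitoribosome) translates the messenger RNAs of the mitochondrial genome, which encode core subunits of the respiratory chain and ATP synthase. Its ribosomal RNAs come from the mitochondrial genome, whereas its proteins are encoded in the nucleus, made in the cytosol and imported. Part of these proteins have homologs in the bacterial ribosome (46 of the 78 members as classed here), and the others are particular to mitochondria. T cells expand their mitochondria after activation.

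CD3+ T cells of WT mouse spleen were activated with antibodies to CD3 and CD28 for 24 h, in 3 samples alone (TCR alone) and in 3 samples with DMGV at 100 ng/ml (TCR+DMGV). DMGV, dimethylguanidino valeric acid, is the compound named in the sample labels and a metabolite of methylated arginines. The comparison asked how the added compound alters gene expression of activated T cells. The supplementary legend of the same experiment gives the dose and time but names the compound LNY1, the purified factor from fibroblast medium. The paper's Results also name LNY1 for this experiment. They equate it with asymmetric and symmetric dimethylarginine, from which DMGV is formed. Which compound the cells received cannot be told from these sources, and the group name TCR+DMGV follows the labels. The cells were isolated on magnets from spleens, and no label ties a sample to a single animal or gives an age.

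The summed gene counts ranged from 37758725 to 43718867 per sample. The first principal component (32.2% of the variance) did not part the groups. It set TCR alone replicate 3 and TCR+DMGV replicate 1, with scores of 42.1 and 42.9, apart from the other 4 samples, which scored between -34.9 and -10.5. All 11 T cell markers were detected, and their summed CPM (counts of a gene relative to the normalized library size) was 3309 to 3471 in TCR alone and 3508 to 3673 in TCR+DMGV, without overlap. Taken singly, 10 of the 11 were higher and 1 was lower by fitted fold change. Only 2 of them (18.2%) were higher without overlap, against 4.92% of tested genes. The 4 natural killer markers summed to 1.11 to 1.26 CPM against 1.67 to 2.63, the 7 erythroid markers to 4.01 to 5.37 against 2.36 to 3.88 and the 4 platelet markers to 0.843 to 1.11 against 1.19 to 1.31, each without overlap. The 8 B cell markers summed to 11.2 to 13.7 against 12.7 to 13.4 CPM, with overlap. The 8 macrophage and monocyte markers summed to 9.07 to 12.8 against 9.08 to 11.2 CPM, also with overlap. Sums overlapped too for the 5 dendritic cell markers (4.70 to 5.32 against 3.79 to 5.46 CPM). For the 6 stromal and endothelial markers they were 32.5 to 37.4 against 35.7 to 37.1 CPM, with overlap. All 8 neutrophil markers were at 0. In bulk RNA, fewer cells of a type and less RNA per cell cannot be told apart, and the part of these markers in the results on the members was not tested.

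The sequences before the start sites of the members were read from RefSeq promoters of GRCm38.p6, which held 75 promoters of 69 of the 78 members, each from 250 bases before the start site to 50 after it. The 5 matched members with the highest fitted fold change are shown, from 100 bases before the start site, in lower case, with an exact match to the ETS core CCGGAAG, bound by factors such as GABP, in capitals on either strand. Each is written 5′ to 3′ along its gene. They are Mrps21 at chr3:95871485-95871614 (reverse strand), Mrps14 at chr1:160195115-160195244, Mrpl57 at chr14:57826139-57826268, Mrps12 at chr7:28741792-28741921 (reverse strand) and Mrpl52 at chr14:54426809-54426938.
Mrps21: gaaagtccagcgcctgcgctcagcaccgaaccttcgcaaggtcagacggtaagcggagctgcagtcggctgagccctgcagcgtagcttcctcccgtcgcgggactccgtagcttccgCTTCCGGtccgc
Mrps14: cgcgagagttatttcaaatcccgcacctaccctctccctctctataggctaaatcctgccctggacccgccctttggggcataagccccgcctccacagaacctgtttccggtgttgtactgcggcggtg
Mrpl57: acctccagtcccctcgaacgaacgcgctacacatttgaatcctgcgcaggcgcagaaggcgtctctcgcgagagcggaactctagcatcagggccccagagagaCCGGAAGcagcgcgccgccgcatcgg
Mrps12: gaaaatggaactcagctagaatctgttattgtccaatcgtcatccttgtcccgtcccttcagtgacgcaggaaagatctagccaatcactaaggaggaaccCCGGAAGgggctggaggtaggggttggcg
Mrpl52: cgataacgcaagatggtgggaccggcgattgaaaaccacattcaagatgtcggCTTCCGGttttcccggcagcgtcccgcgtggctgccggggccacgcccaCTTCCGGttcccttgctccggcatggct

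Mrpl52 held the ETS core at 2 places, Mrps21, Mrpl57 and Mrps12 at 1 place, and the printed stretch of Mrps14 held none. The ETS core was in 34.7% of the members' promoters, 31.2% of those of the large subunit and 40.7% of those of the small subunit. It was in 17.9% of the promoters of tested genes and in 8.86% of all 32851 promoters of the same length. Of its 31 occurrences in members, 26 began within 60 bases of the start site. The letters AAGATGGC, the core bound by YY1, were in 16% of the members' promoters, 4.49% of those of tested genes and 2.75% of all, and 8 of the 12 occurrences began after the start site. The NRF1 letters CGCATGCG were in 9.33%, 3.80% and 1.87%. Other gene sets held these letters too: the ETS core was in 35.6% of the promoters of cytosolic ribosomal protein genes and 23.9% of those of oxidative phosphorylation genes, and the latter held the YY1 letters in 13.4% and the NRF1 letters in 13.4%. By contrast, the SP and KLF box GGGCGG was in 52.0% of the members' promoters and 61.5% of those of tested genes, and TATAAA was in 6.67% and 6.88%. All were searched on both strands, and the motifs could overlap. A match is a description of the letters and shows no binding. The median log2 fold change was 0.12 in the 26 matched members with the ETS core and 0.11 in the 43 without it.

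To place the members by abundance, the FPKM of all transcripts of a gene were summed (below, the level), which scales the counts to transcript length. The median level was 42.2 FPKM over the large subunit genes (3.25 to 165) and 35.7 FPKM over the small subunit genes (11.5 to 107). Mrpl12, a protein of the stalk that recruits translation factors and a partner of the mitochondrial RNA polymerase, had the highest level of all, at 165 ± 18.2 FPKM (SD over 6 samples). It was followed by Mrpl42 (140 ± 21.1 FPKM), a mitochondria-specific protein, and Mrpl20 (128 ± 18.8 FPKM), a homolog of a bacterial large subunit protein, and these 3 ranges overlapped. Mrpl10 and Mrpl11, the other proteins at the stalk and its base, had levels of 38.8 ± 1.98 and 17.2 ± 1.86 FPKM.

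In the small subunit, Mrps6 (107 ± 7.26 FPKM), Mrps15 (86.9 ± 4.24 FPKM) and Mrps18b (65.7 ± 4.87 FPKM) had the highest levels. The lowest were Mrps25 (11.5 ± 0.781 FPKM), Mrps35 (11.9 ± 0.960 FPKM) and Mrps14 (14.1 ± 2.52 FPKM). The lowest of the large subunit were Mrpl53 (3.25 ± 1.18 FPKM), Mrpl17 (11.4 ± 0.891 FPKM) and Mrpl47 (11.7 ± 0.673 FPKM). The levels spread over 50.8 times within the large and 9.36 times within the small subunit, although the assembled particle holds most of these proteins in single copies. The wider spread of the large subunit rested on Mrpl53 alone, since the next lowest, Mrpl17, was at 11.4 FPKM. Mrpl53 lies within the annotated gene Gm42688, which overlaps it by 900 bases on the same strand and had 661 counts on average against 108 for Mrpl53.

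**Figure D1:**
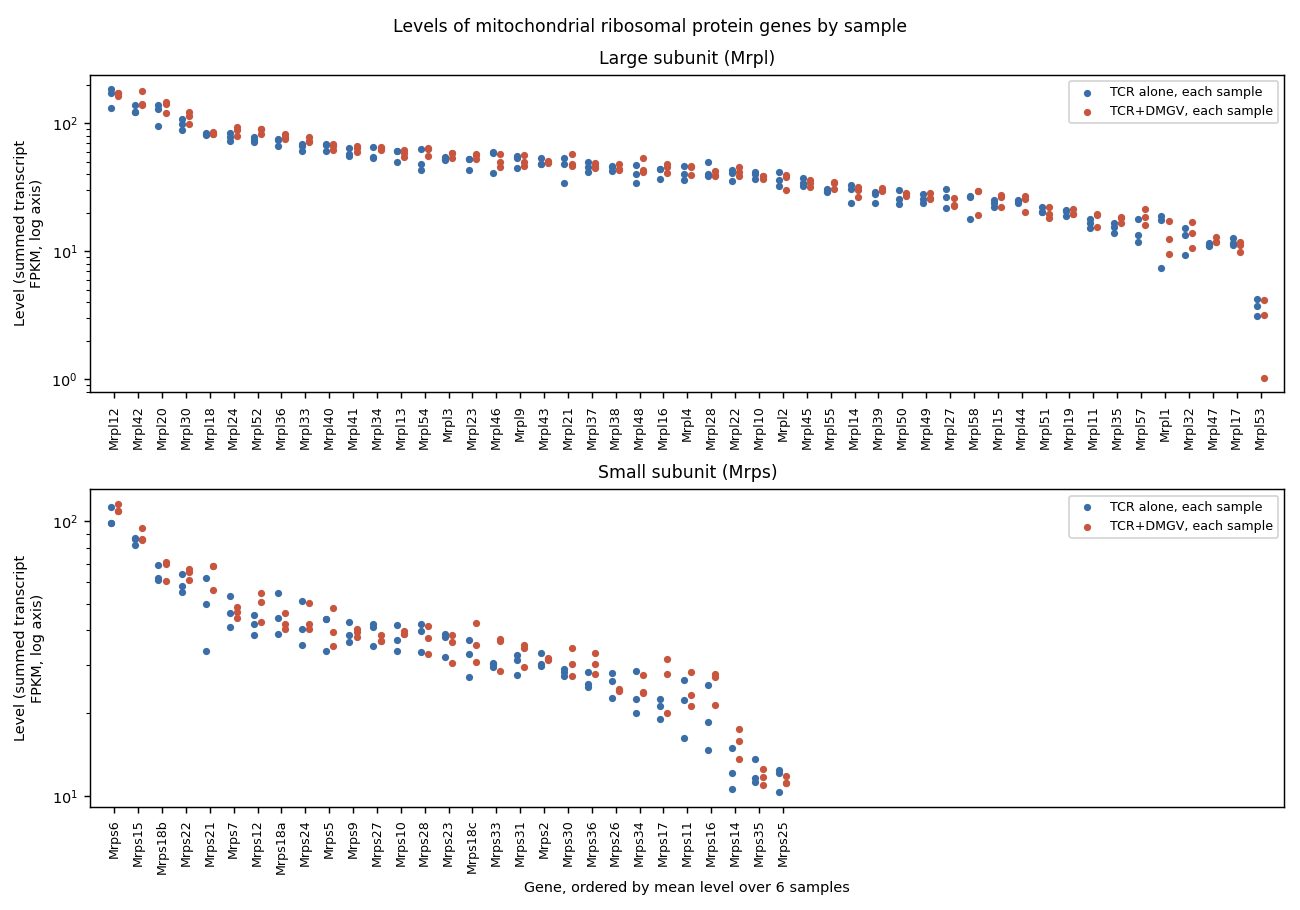
Level of each mitochondrial ribosomal protein gene (summed transcript FPKM, log axis) in each of 6 samples, for 49 large subunit genes (top) and 29 small subunit genes (bottom), ordered by mean level. Points of both groups sit together for most genes; Mrpl12 is highest at 165 FPKM on average and Mrpl53 lowest at 3.25 FPKM.

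The ratio between the subunits differed little between samples. The summed level of the large subunit genes was 2.04, 2.09 and 2.06 times that of the small subunit genes in TCR alone replicates 1, 2 and 3 and 2.05, 2.05 and 2.09 times in TCR+DMGV. All 78 genes together held 0.695% to 0.773% of the FPKM in TCR alone and 0.753% to 0.787% in TCR+DMGV, and the groups overlapped.

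Between the groups, none of the 78 members passed an adjusted p of 0.05 (edgeR's quasi-likelihood test, Benjamini-Hochberg over all tested genes), against a background of 0.0135% (2 genes of 14786), and every member had an adjusted p of 0.999. At an unadjusted p under 0.05, 5 members were higher in TCR+DMGV and 0 were lower, where 1.63% of all tested genes were higher and 1.56% lower. Without overlap between groups, 14 members (17.9%) were higher in all TCR+DMGV samples, against 4.92% of tested genes, and 0 were lower, against 3.94%. DESeq2 gave 4 members at the unadjusted threshold (2.22% of the genes it tested), limma on log2(FPKM + 1) gave 6 (3.4%), and both gave 0 members after adjustment. The exact permutation test of 3 samples against 3 cannot give a p below 0.1.

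The fitted value was above 0 for 62 of the 78 members, where 50.6% of tested genes were above 0. The median log2 fold change of the 78 members was 0.11, and that of all tested genes was 0.0024. They leaned on TCR alone replicate 1, in which 72 of the 78 members lay below their 6-sample mean and 58 were at their lowest, compared with 21.8% of tested genes at their lowest. Without that library the median was 0.030 for the large and 0.068 for the small subunit, 47 of 78 members were higher, 0 had an unadjusted p under 0.05, and 12 members were higher and 9 lower without overlap (7.66% and 9.64% of tested genes). It was also the library with the fewest counts (37758725), and the part of depth was not tested.

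**Figure D2:**
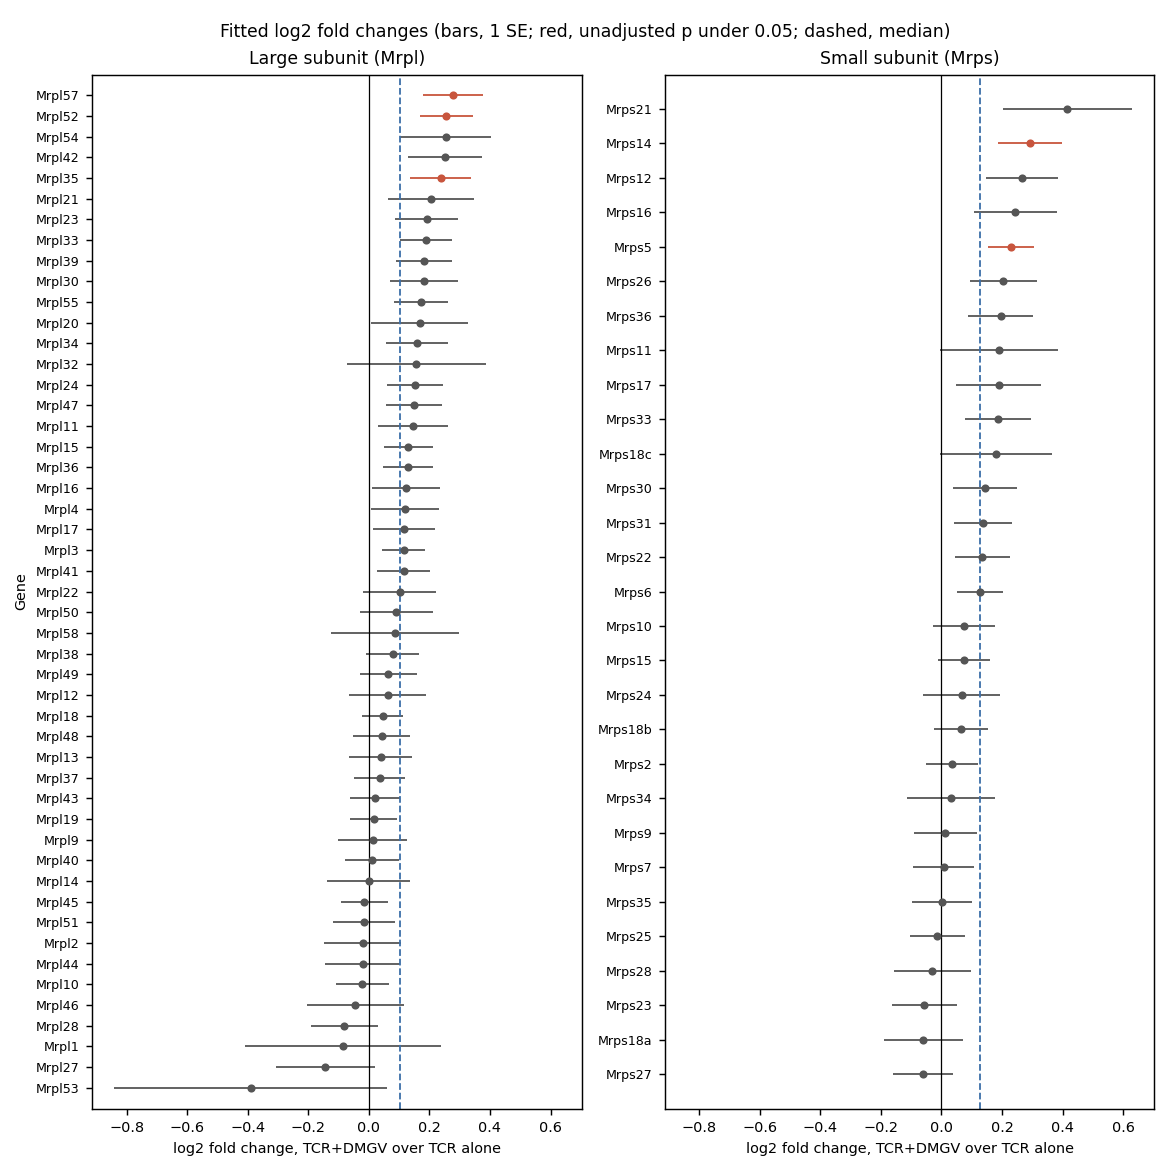
Fitted log2 fold change of each member, TCR+DMGV over TCR alone (points, with bars of 1 SE, 3 samples a group), for the large and the small subunit; red marks an unadjusted p under 0.05 and the dashed line the median. The medians, 0.10 and 0.13, lie right of 0, and most bars reach across or near it.

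Comparing the subunits, the median log2 fold change was 0.10 for the 49 large subunit genes (38 higher, 11 lower) and 0.13 for the 29 small subunit genes (24 higher, 5 lower). The median deviation of the large subunit genes from their 6-sample mean (log2 CPM) was -0.16, -0.012 and 0.021 in TCR alone replicates 1, 2 and 3, and 0.059, 0.0061 and 0.082 in TCR+DMGV. That of the small subunit genes was -0.16, -0.014 and 0.036 in TCR alone, and 0.076, -0.0042 and 0.077 in TCR+DMGV. In both subunits TCR alone replicate 1 was far the lowest sample, and the groups overlapped. Within a sample the subunits differed by -0.017 to 0.010, with a mean of -0.0041 ± 0.010 in TCR alone and -0.00056 ± 0.015 in TCR+DMGV (SD, n = 3 each), less than the spread between replicates.

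Symbols do not always give the subunit. By structure, Mrps30 and Mrps18a are proteins of the large subunit, and Mrps36 is a component of the α-ketoglutarate dehydrogenase complex. With 51 large and 26 small subunit genes assigned in that way, the medians were 0.10 and 0.10. Mrps30 had 101, 108 and 105 CPM in TCR alone and 100.3, 131 and 116 CPM in TCR+DMGV (log2 fold change 0.14, SE 0.11). Mrps36 had 18.8, 22.0 and 19.3 CPM against 23.8, 21.4 and 23.7 CPM (0.20, SE 0.11). Both overlapped between the groups.

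Mrps18a, Mrps18b and Mrps18c are paralogs of 1 bacterial protein, and their fitted values did not share a sign. Mrps18a had a log2 fold change of -0.060 (SE 0.13), Mrps18b of 0.065 (SE 0.089) and Mrps18c of 0.18 (SE 0.19), and in all 3 genes the groups overlapped. Over the 46 members classed here as having a bacterial homolog the median was 0.12 with 39 higher. Over the 31 classed as mitochondria-specific it was 0.064 with 22 higher.

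The 5 members with an unadjusted p under 0.05 had groups that did not overlap, and each gene was 1.17 to 1.22 times as high on the fitted scale. Mrps5 (ENSMUSG00000027374.12, chromosome 2, 127587222 to 127606829, GRCm38, forward strand), a homolog of a bacterial small subunit protein that acts in decoding accuracy, had 99.7, 101 and 108 CPM in TCR alone and 121, 115 and 126 CPM in TCR+DMGV. Every TCR+DMGV sample was above every TCR alone sample, with a log2 fold change of 0.23 (SE 0.075). Of its counts, 7.61% to 37.3% were assigned to retained-intron transcripts, a share that varied more between samples than the gene's total did.

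Mrpl52 (ENSMUSG00000010406.11, chromosome 14, 54426909 to 54429756, forward strand), a mitochondria-specific protein, had 33.4, 34.9 and 35.9 CPM in TCR alone and 42.0, 39.3 and 43.2 CPM in TCR+DMGV (0.26, SE 0.087). Mrpl57 (ENSMUSG00000021967.4, chromosome 14, 57826234 to 57829296, forward strand), a further mitochondria-specific protein of the large subunit, had 23.9, 24.9 and 28.2 CPM against 31.0, 30.1 and 32.1 CPM (0.28, SE 0.099). From the highest TCR alone to the lowest TCR+DMGV sample, the gap was narrower than the range within TCR+DMGV for Mrpl52 and within TCR alone for Mrpl57.

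Mrps14 (ENSMUSG00000058267.13, chromosome 1, 160195215 to 160202170, forward strand), a homolog of a bacterial protein of the small subunit head, had 31.2, 37.1 and 38.0 CPM against 44.4, 44.2 and 41.6 CPM (0.29, SE 0.11). Mrpl35 (ENSMUSG00000052962.3, chromosome 6, 71812997 to 71826969, reverse strand), a homolog of a bacterial large subunit protein, had 55.6, 68.4 and 61.2 CPM against 74.5, 68.9 and 74.9 CPM (0.24, SE 0.10). In Mrpl35 TCR alone replicate 2 and TCR+DMGV replicate 2 nearly met. Without TCR alone replicate 1 the log2 fold changes of these 5 genes were 0.15 to 0.21.

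The other 9 members without overlap were Mrpl33, Mrpl39, Mrpl55, Mrpl23, Mrpl47, Mrpl36, Mrpl15 and Mrpl3 in the large and Mrps6 in the small subunit, with log2 fold changes from 0.11 (Mrpl3) to 0.19 (Mrpl23). Mrpl23 is a homolog of a bacterial protein at the tunnel exit, Mrpl3 of one near the peptidyl transferase center, and Mrpl39 is mitochondria-specific. Mrpl23 has a pseudogene copy, Mrpl23-ps1, with 183 to 217 counts, so that reads may be split between them.

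The highest fitted value belonged to Mrps21 (ENSMUSG00000054312.6, chromosome 3, 95862634 to 95871519, reverse strand), a homolog of a bacterial small subunit protein. It had 17.7, 26.9 and 32.3 CPM in TCR alone and 35.2, 30.4 and 37.0 CPM in TCR+DMGV, and TCR alone replicate 3 lay within the range of TCR+DMGV. Its log2 fold change was 0.42 (SE 0.21), and without TCR alone replicate 1 it was 0.19. Mrps12, a homolog of the bacterial protein at the decoding center, had 31.4, 34.9 and 36.5 CPM against 41.4, 36.2 and 46.1 CPM (0.27, SE 0.12). Mrpl54 (0.25, SE 0.15), Mrpl42 (0.25, SE 0.12) and Mrps16 (0.24, SE 0.14) followed with overlapping groups. Of the Mrps16 counts, 37.4% were assigned to Mrps16-202, annotated as not coding (237, 351 and 698 against 805, 570 and 652). The protein-coding Mrps16-201 had 840, 1101 and 715 counts against 908, 879 and 1093.

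At the other end, Mrpl53 had 2.5, 3.06 and 3.29 CPM in TCR alone and 2.52, 3.37 and 0.858 CPM in TCR+DMGV, from 34 to 145 counts a sample. Its log2 fold change of -0.39 (SE 0.45) rested on TCR+DMGV replicate 3. Most of the gene's counts were assigned to the retained-intron transcript Mrpl53-202 (60, 103 and 100 against 85, 126 and 11). The protein-coding Mrpl53-201 had 35, 22 and 36 counts against 27, 19 and 23. In TCR+DMGV replicate 3 only the retained-intron count lay below that of all other samples. Mrpl27 (-0.14, SE 0.16), Mrpl28 (-0.081, SE 0.11), Mrps27 (-0.061, SE 0.10), Mrps23 (-0.056, SE 0.11) and Mrps28 (-0.030, SE 0.13) had values within 1 SE of 0. Mrpl1, a homolog of the bacterial protein of the L1 stalk, had 46.3, 49.96 and 22.9 CPM against 27.4, 49.6 and 35.4 CPM (-0.085, SE 0.32).

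Mrpl1 was lowest in TCR alone replicate 3 and TCR+DMGV replicate 1, the samples that the first principal component set apart. Mrpl32, which had 48.0, 41.9 and 29.8 CPM against 33.6, 55.8 and 44.1 CPM (0.16, SE 0.23), was lowest in the same libraries. Their transcripts had 41.1% and 39.8% GC, where the median of the members was 50.4%. Over the 78 members, the deviation in those libraries from the other 4 had a Pearson r of 0.54 with GC content, across genes of the same libraries, which are no independent replicates. Without both libraries, 66 of 78 members were higher, 11 had an unadjusted p under 0.05 (6.53% of tested genes, against 3.19% with all 6 libraries) and 32 were higher without overlap (19.6% of tested genes).

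**Figure D3:**
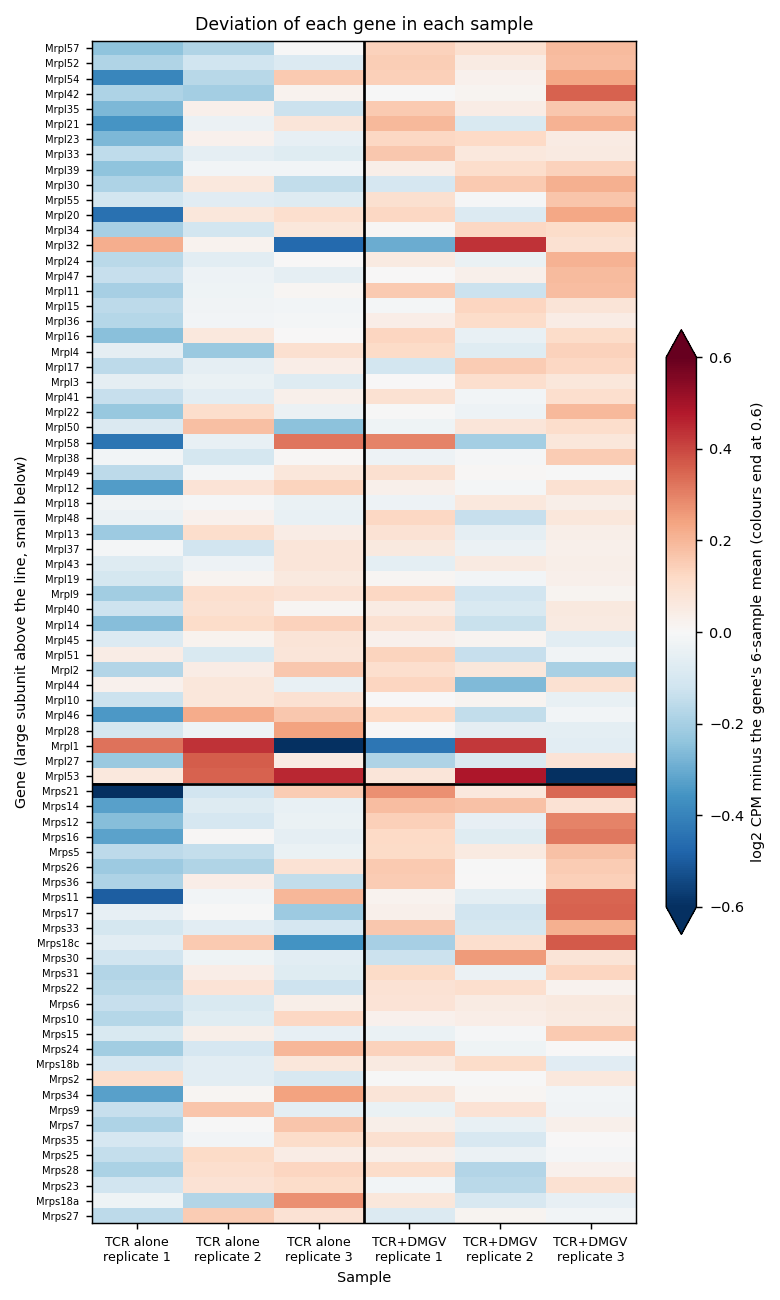
Log2 CPM of each member minus its 6-sample mean (color, ending at 0.6 in each direction) in each sample, large subunit above the line and small subunit below it, ordered by fold change. The column of TCR alone replicate 1 is blue for 72 of 78 genes, and Mrpl1 and Mrpl32 are low in TCR alone replicate 3 and TCR+DMGV replicate 1.

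The members were shorter than most tested genes. Their median expressed transcript length was 1357 bases, where that of all tested genes was 2652 bases. With a correction for transcript length, the medians were 0.052 for the large and 0.050 for the small subunit, 53 members were higher and 7 were higher without overlap (3.68% of tested genes). Mrpl12, the most abundant, had 192, 256 and 266 CPM in TCR alone and 247, 240 and 258 CPM in TCR+DMGV. Only TCR alone replicate 1 lay apart, and its log2 fold change was 0.062 (SE 0.13) with all 6 libraries and -0.088 without that one.

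Of the mitoribosome proteins without an Mrp symbol, 2 of 5 had a fitted value above 0. Aurkaip1, a protein of the small subunit, had 54.9, 67.6 and 73.5 CPM against 75.1, 75.5 and 77.0 CPM, without overlap (0.22, SE 0.12). Gadd45gip1, of the large subunit, had a value of 0.075 (SE 0.094). Dap3, a GTP-binding protein of the small subunit, Ptcd3, an RNA-binding protein of the small subunit, and Chchd1 had values of -0.025 (SE 0.090), -0.019 (SE 0.14) and -0.069 (SE 0.11). Among the members, Mrpl58, a peptidyl-tRNA hydrolase within the large subunit, had 25.7, 33.8 and 43.7 CPM against 42.9, 30.3 and 36.6 CPM (0.088, SE 0.21). Mrpl10 and Mrpl11 had values of -0.021 (SE 0.088) and 0.15 (SE 0.12), with overlapping groups.

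The steps around the mitoribosome were read from lists of related genes, and no gene of these lists passed the adjusted threshold. Of 28 assembly factors, 18 were higher with a median log2 fold change of 0.054, led by Mettl17 and Mettl15, methyltransferase-family proteins of small subunit assembly (0.21 and 0.25, both without overlap). Of 17 translation factors, 10 were higher (0.081). Among them, Tufm, the mitochondrial elongation factor Tu, had 124, 113 and 127 CPM against 133, 134 and 136 CPM, without overlap (0.15, SE 0.075). Metap1d, a methionine aminopeptidase, had 6.85, 6.44 and 8.31 CPM against 12.3, 7.71 and 10.3 CPM, with overlap (0.49, SE 0.20). Of 20 mitochondrial tRNA synthetases, 12 were higher (0.0075), with Ears2 at 0.32 (SE 0.14) and Rars2 at 0.14 (SE 0.086).

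Of 27 genes of mitochondrial DNA expression, 13 were higher (-0.011). Polrmt, the mitochondrial RNA polymerase, had 44.3, 41.5 and 42.4 CPM against 56.9, 56.4 and 47.7 CPM, without overlap (0.33, SE 0.10). Mgme1, a mitochondrial exonuclease, had a value of 0.16 (SE 0.10), with overlap. Of 10 tested regulators of mitochondrial biogenesis, 5 were higher (0.0060). Gabpb1, a beta subunit of GABP, had 77.2, 68.2 and 64.7 CPM in TCR alone and 43.6, 42.5 and 40.9 CPM in TCR+DMGV, the smallest p in these lists, with a log2 fold change of -0.73 (SE 0.096, adjusted p = 0.244 by edgeR). Its DNA-binding partner Gabpa had 143, 145 and 122 CPM against 126, 137 and 133 CPM (-0.051, SE 0.091), with overlap, and Ppargc1a was at 0 in all samples.

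The medians of the cytosolic ribosome and of oxidative phosphorylation put the 6 samples in the same order as both mitoribosome subunits. Of 80 tested cytosolic ribosomal protein genes, 79 were higher, with a median of 0.15, and 73 were at their lowest in TCR alone replicate 1. Only 3 of them (3.75%) were higher without overlap and 0 were lower, against 4.92% and 3.94% of tested genes. Rpl21 and Rpl34, of the cytosolic large subunit, had values of 0.26 (SE 0.086) and 0.25 (SE 0.098). Of 76 nuclear subunits of oxidative phosphorylation, 69 were higher, with a median of 0.13, and 53 were at their lowest in TCR alone replicate 1. Without overlap, 5 of them (6.58%) were higher and 0 were lower. Cox5a, a subunit of cytochrome c oxidase, had 96.7, 91.7 and 86.3 CPM against 111, 116 and 110.4 CPM (0.30, SE 0.076), and Uqcr10, of complex III, had a value of 0.39 (SE 0.12). Neither list was compared with the members by a test. All 37 genes of the mitochondrial genome, among them both mitochondrial ribosomal RNAs and the 13 messenger RNAs that the mitoribosome translates, were listed at 0 in every sample, so the RNA partners of the members were not analysed here.

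**Figure D4:**
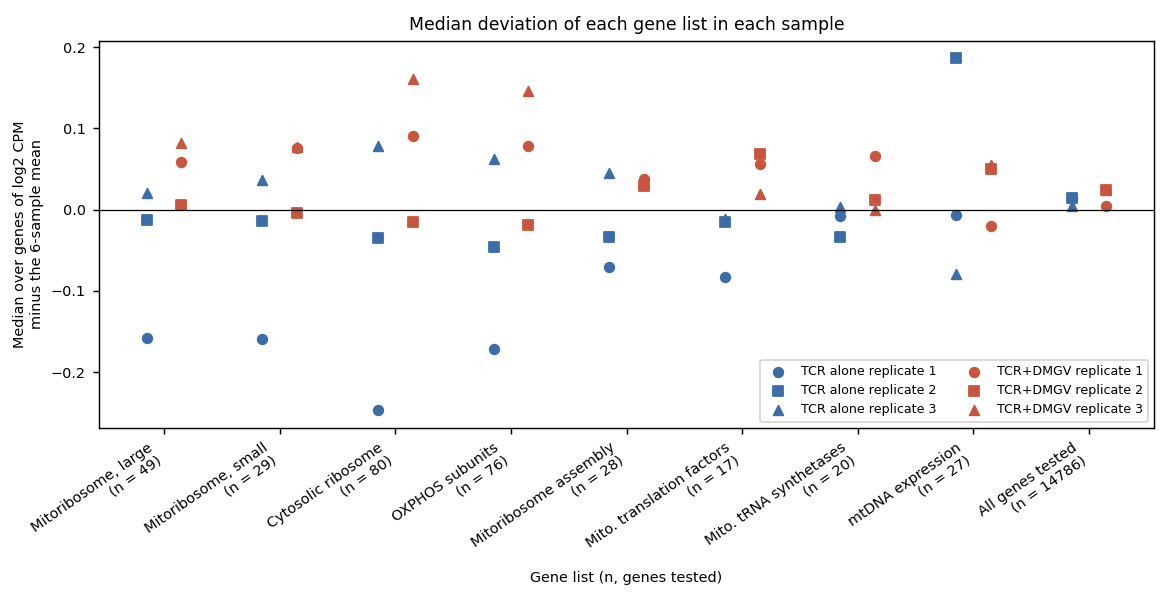
Median over the genes of each list of log2 CPM minus the gene's 6-sample mean, per sample (blue, TCR alone; red, TCR+DMGV; shapes, replicates). TCR alone replicate 1 is the lowest sample in both mitoribosome subunits, at -0.16, in the cytosolic ribosome, at -0.25, and in OXPHOS (oxidative phosphorylation) subunits, at -0.17, while the median of all tested genes stays near 0.

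At the transcript level, the most abundant transcript was protein-coding in 75 of the 78 members, all but Mrpl3, Mrpl53 and Mrps34. In 60 members, over 90% of the counts were in protein-coding transcripts. Retained-intron transcripts, which keep an intron and are annotated as not coding, held 4.77%, 3.93% and 3.78% of the members' counts without DMGV (TCR alone replicates 1, 2 and 3) and 3.17%, 3.499% and 2.62% with it. The groups did not overlap, whereas the share over all tested genes was 2.39% to 2.79% with overlap. The share was 2.77% ± 0.80 and 1.71% ± 0.26 in the large subunit and 6.80% ± 0.82 and 5.70% ± 1.01 in the small subunit (SD, n = 3 each), with overlap in both.

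The difference rested largely on Mrpl38 (chromosome 11, 116131817 to 116138868, reverse strand), a mitochondria-specific protein of the large subunit. Its retained-intron share was 84.3%, 88.8% and 21.5% in TCR alone, compared with 20.6%, 20.2% and 16.4% in TCR+DMGV. Only TCR alone replicates 1 and 2 were high, and the gene's total did not follow (log2 fold change 0.079, SE 0.088). The protein-coding transcript Mrpl38-201 was assigned 393, 282 and 2167 reads in TCR alone, against 2299, 2272 and 2447 with DMGV. Without Mrpl38 the share of the members was 3.30% ± 0.41 in TCR alone and 2.87% ± 0.43 in TCR+DMGV, and the groups overlapped. Counts of overlapping transcripts are estimates of the authors' program, and whether such a switch lies in the RNA or in the estimate was not tested.

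Mrps26, a mitochondria-specific protein of the small subunit, had shares of 48.8%, 37.9% and 36.6% in TCR alone and 24.4%, 33.6% and 27.8% in TCR+DMGV, without overlap. Mrps17 (1.31% ± 0.41 against 0.471% ± 0.23) and Mrpl30 (0.30% ± 0.050 against 0.146% ± 0.041) also did not overlap, on about 11 and 9 retained-intron counts a sample. Of the 44 members with a retained-intron transcript, the share was lower without overlap in 4, where 4.61% of the 6484 tested genes with such a transcript were, and higher without overlap in 0, against 4.4%. By mean it was lower in TCR+DMGV in 27 of the 44, against 49% of those genes.

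**Figure D5:**
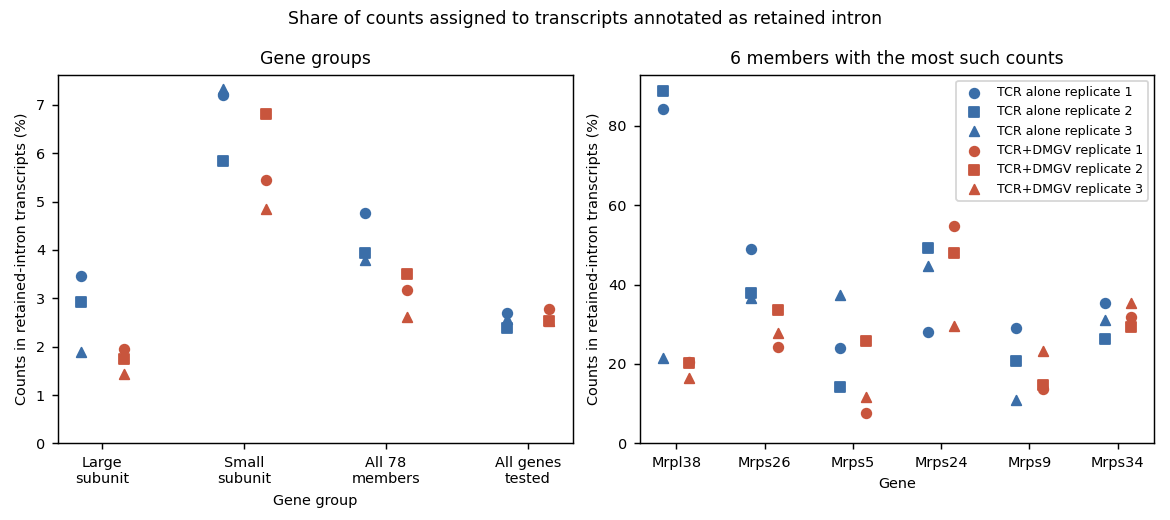
Percent of counts assigned to retained-intron transcripts in each sample (blue, TCR alone; red, TCR+DMGV; shapes, replicates), for gene groups (left) and for the 6 members with the most such counts (right). Mrpl38 is at 84.3% and 88.8% in TCR alone replicates 1 and 2 and at 16.4% to 21.5% in the other samples.

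Other genes overlap many members. In the annotation, 42 of 78 members share bases with another gene, and for 25 of them that gene had over 10% of the member's counts. Mrpl46 and Mrps11 overlap each other by 413 bases on opposite strands. Mrps11 had a log2 fold change of 0.19 (SE 0.20) and Mrpl46 of -0.045 (SE 0.16). Mrpl36 and Ndufs6 share 30 bases. Whether the counts used strand is not given in the sources used here, so reads over such bases cannot be told apart.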

How the data were processed

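RNA of 6 samples was analysed, 3 a group. Libraries were made from total RNA with a messenger RNA kit. The authors filtered reads with SOAPnuke, aligned them with HISAT2 (2.0.4 per the submitters' processing notes, which name mm9) and calculated expression with StringTie. The authors deposited whole-number counts and FPKM per gene and per transcript. How counts were made from StringTie's output, and whether with strand, is not given in the sources used here. Of the gene identifiers, 99.72% were found in GENCODE M21 (GRCm38) when versions were ignored and 93.31% when they were kept, so symbols and coordinates come from M21.

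Gene counts were tested with edgeR 4.0.16 (R 4.3.3; TMM, default expression filter, quasi-likelihood test, two-sided, Benjamini-Hochberg), without a block. The test was checked on simulated counts drawn independently for each gene. The check of its calls does not cover shifts shared by many genes of a library, such as that of TCR alone replicate 1. CPM are TMM-normalized, and deviations use log2 CPM (prior count 2). The SE is the fold change divided by the square root of F. The deposited FPKM per gene divide by a length that includes retained introns, so levels are the sum of the deposited transcript FPKM. This sum also stood for the mean FPKM in the rule for named genes. The counts of a gene's transcripts summed to the gene count in all 78 members. No pair of replicates differed as little as sampling noise (median chi-square 3.89 to 9.00 a gene). The legend gives independent biological samples, and p-values measure only the spread between these samples. Counting error is small for most members at these depths and is not printed separately. It is larger for Mrpl53, for the retained-intron counts of Mrps17 and Mrpl30 and for the marker sums of a few CPM.

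The members and lists were chosen with earlier results of these data known. Named were, by rule, the 4 highest and 4 lowest fold changes and the 3 highest and 3 lowest levels in each subunit, members with an unadjusted p under 0.05 or without overlap, members fixed by role, and the 2 smallest p in each other list. Members named for retained introns or other transcript classes, GC content or overlapping genes, Gabpa and Ppargc1a were chosen after their values were seen. Alternatives were DESeq2 1.42.0, RLE factors, library size alone, other filters, summed transcript counts, limma 3.58.1 on log2(FPKM + 1) or log2(FPKM + 0.1), corrections for length or GC (loess, span 0.3), a replicate block, and libraries left out. Tables were read with Python.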

Additional observations from a re-analysis of the deposited data

How the results depend on the processing

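None of the 78 members passed an adjusted p of 0.05 under any of the 18 alternatives (lowest 0.649). The medians of both subunits were above 0 in all of them and moved by less than the SD between samples. At an unadjusted p under 0.05 the count of 5 members (3.19% of tested genes) went to 3 with the length correction (2.82%), 2 with the GC correction (3.92%) and 11 without both libraries apart on the first component (6.53%). It ranged from 0 to 11 with 1 library left out: 0 without TCR alone replicate 1 (2.89%), 1 without TCR+DMGV replicate 1 (2.6%) or 3 (2.42%), 3 without TCR alone replicate 2 (2.86%) and 11 without TCR alone replicate 3 (7.3%). The 14 members without overlap (4.92% of tested genes higher and 3.94% lower) became 7 (3.68% and 4.4%), 9 (4.8% and 5.47%) and 32 (19.6% and 19.1%). With 1 library left out, where fewer samples overlap less by construction, they ranged from 14 to 31: 21 without TCR alone replicate 1, of which 9 were lower (7.66% and 9.64%), 26 without TCR alone replicate 3 (14.6% and 13.8%) and 31 without TCR+DMGV replicate 2 (10.4% and 7.3%). The difference between the medians, large minus small, was -0.025. It was 0.00096 by structure, 0.0023 with the length correction and -0.0056 without both libraries, and ranged from -0.039 to 0.015 with 1 library left out.

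The labels do not say that equal numbers pair samples across the groups, so the numbers were taken as names. Deviations of same-numbered samples from their group means had correlations of -0.15, 0.12 and -0.15. With 3 samples a group, these cannot show whether the samples were paired. With the replicate block 3 members had an unadjusted p under 0.05 (2.3% of tested genes) and no member's adjusted call changed, while the 2 adjusted calls over all tested genes became 0. Of 576 alternative values of 32 named members, 562 had the sign of the reported value. These 32 were the members named for fold change, p or lack of overlap, with Mrpl12, Mrps30, Mrps36, Mrps18b and Mrps18c. Mrpl10, Mrpl11, Mrpl32, Mrpl38, Mrpl46, Mrpl58 and Mrps11, whose fold changes are also reported, were not among them. Mrpl1 changed sign with the GC correction (0.019), and Mrpl28 and Mrps18a without both libraries (0.011 and 0.027). With 1 library left out, values ran from -0.36 to 0.11 for Mrpl1, -0.088 to 0.15 for Mrpl12, -0.29 to 0.016 for Mrpl27, -0.17 to 0.034 for Mrpl28, -0.16 to 0.079 for Mrps18a, -0.14 to 0.0076 for Mrps23 and -0.14 to 0.048 for Mrps28. The cause of these changes was not tested. Depth limits Mrpl53 most, which had 34 to 145 counts a sample.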
